A study of Mus musculus with 24 samples.

Results

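Oxidative phosphorylation makes most of the ATP of the brain, and the nuclear genes that encode its machinery were followed here in the injured and the opposite hippocampus of newborn mice. The genes were taken by name: every gene whose symbol begins with Nduf, Uqcr, Atp5 or Cox followed by a digit from 4 to 8, plus Sdha, Sdhb, Sdhc and Cyc1, kept where the normalized count was 10 or more in 2 or more of the 24 libraries. Of 97 names that matched, 94 passed, out of 18364 genes tested in all. The 3 that did not pass were Cox8b, Cox7b2 and the pseudogene Atp5k-ps4, which reached at most 4.73, 6.91 and 3.20 normalized counts. Just inside the limit, Cox7a1 was at or over 10 in 11 libraries, Cox4i2 in 21 and Cox6b2 in 22, and every other member was at or over 10 in all 24. By complex, 39 members belong to complex I, 8 are assembly factors of complex I (Ndufaf), 3 belong to complex II, 9 to complex III, 17 to complex IV (Ndufa4 and Ndufa4l2 among them) and 18 to complex V. These counts include Ndufab1-ps in complex I and Atp5c1-ps in complex V, which are pseudogenes by name.

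The mice were 10 days old (postnatal day 10) and all had undergone hypoxia-ischemia, an insult that combines low oxygen with reduced blood flow. The groups were labelled NEIL1-KO, NEIL2-KO and WT (NEIL1 and NEIL2 are DNA glycosylases, enzymes that remove oxidized bases from DNA), and from each the ipsilateral, injured hippocampus and the contralateral hippocampus were collected at 3 h or 6 h, with 2 biological replicates in each of the 12 groups. No uninjured mice were among the samples, so the contralateral side, taken after the same insult, is the reference. The titles of 8 libraries say NEIL2-KO although their genotype tag says NEIL1-KO, and the titles were followed. How the alleles were made, and the sex and strain of the mice, are not given in the sources used here. Each value is a read count divided by the authors' size factor for that library (normalized count). A gene was called higher or lower when its limma adjusted p (Benjamini-Hochberg over the 18364 genes) was under 0.05, and fold changes are log2 values of ipsilateral over contralateral or of knockout over WT, with the standard error (SE).

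Neil2 reads were nearly absent from the NEIL2-KO libraries, at 0 to 3.02 normalized counts, against 15.2 to 27.8 in WT. Libraries labelled NEIL1-KO did not have fewer Neil1 reads, at 91.6 to 154.6 against 56.8 to 122.6 in WT, and are called labelled NEIL1-KO throughout. The deleted part of either gene is not given in the sources used here. Depth was 17771293 to 29252067 reads per library. Of 12 neuronal markers, 11 were lower ipsilaterally at 6 h and none was higher, and their summed level was 79080 to 150800 ipsilaterally against 204100 to 256100 contralaterally (n = 6 libraries each). At 3 h 8 of the 12 were lower (132200 to 183100 against 218800 to 250300). Endothelial markers were higher at 6 h for 5 of 6 (5575 to 13330 against 3964 to 4567) and blood cell markers for 4 of 4 (9353 to 50080 against 6330 to 15520). Astrocyte markers were 4 higher and 1 lower of 8 (56490 to 120900 against 72210 to 82730), microglial markers 3 higher and 2 lower of 8 (3062 to 7700 against 3193 to 4636), thalamic markers 2 and 2 of 8 (4585 to 7556 against 5145 to 6110) and oligodendrocyte markers 0 and 1 of 8 (9139 to 25520 against 11680 to 18460). Choroid plexus markers ranged from 625.7 to 21360 ipsilaterally and from 412.2 to 32120 contralaterally at 6 h, with 1 of 10 higher and 1 lower. Of all genes tested, 24.7% were lower and 24% higher ipsilaterally at 6 h, and 17.4% and 14.1% at 3 h. No marker of these lists was at 0 throughout a group of libraries. In whole tissue, fewer cells of a type and less RNA per cell cannot be told apart. The part of these shifts in the results on the OXPHOS genes was not tested.

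In the inner mitochondrial membrane, complex I takes electrons from NADH and complex II takes them from succinate. Complex III passes them to cytochrome c, and complex IV hands them to oxygen. Complexes I, III and IV pump protons, and complex V, the ATP synthase, lets the protons flow back to make ATP. Complex II is wholly nuclear encoded and is also an enzyme of the tricarboxylic acid (TCA) cycle. The other complexes mix subunits encoded in mitochondrial DNA, which are not members, with nuclear ones. Neurons depend on this pathway for synaptic transmission and ion pumping, and it stops for want of oxygen during ischemia.

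The promoters of these genes share binding sequences of a few general factors of nuclear-mitochondrial control: NRF1, the ETS factor GABPA and YY1. The promoters of 4 members are shown, chosen as members that moved in opposite directions between the sides, Sdha and Ndufa9, which were lower ipsilaterally at 6 h, and Cox8a and Cox7c, which were higher. Each window runs from 250 bases before to 50 bases after the gene start, is from RefSeq (GRCm38.p6), is written 5′ to 3′ along the gene, and has the matched motif letters in capitals (the NRF1 motif by its name, CCGGAAG for ETS and AAGATGG for YY1, both strands searched, overlaps between motifs not removed).
Sdha, chr13:74350191-74350490, minus strand, 3 NRF1 matches: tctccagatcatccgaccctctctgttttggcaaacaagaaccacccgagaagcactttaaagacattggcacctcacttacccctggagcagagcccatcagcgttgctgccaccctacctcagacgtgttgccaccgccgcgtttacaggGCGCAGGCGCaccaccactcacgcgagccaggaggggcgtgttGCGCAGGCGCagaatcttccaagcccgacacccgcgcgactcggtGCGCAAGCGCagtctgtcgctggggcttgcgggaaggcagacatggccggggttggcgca
Ndufa9, chr6:126849095-126849394, minus strand, 1 YY1 match: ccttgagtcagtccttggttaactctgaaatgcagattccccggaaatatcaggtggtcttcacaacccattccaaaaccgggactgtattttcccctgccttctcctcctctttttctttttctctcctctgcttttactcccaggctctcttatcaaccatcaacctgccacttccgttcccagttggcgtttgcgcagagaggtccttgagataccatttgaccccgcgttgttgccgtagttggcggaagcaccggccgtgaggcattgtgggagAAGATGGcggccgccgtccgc
Cox8a, chr19:7217567-7217866, minus strand, 2 ETS matches on the opposite strand: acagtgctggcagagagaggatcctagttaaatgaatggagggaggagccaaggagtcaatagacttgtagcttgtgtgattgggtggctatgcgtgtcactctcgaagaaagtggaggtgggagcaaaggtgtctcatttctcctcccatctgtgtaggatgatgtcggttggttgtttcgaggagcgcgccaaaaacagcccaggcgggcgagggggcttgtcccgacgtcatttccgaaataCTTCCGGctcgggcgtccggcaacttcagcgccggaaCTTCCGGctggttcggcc
Cox7c, chr13:86046746-86047045, minus strand, 1 YY1 match on the opposite strand: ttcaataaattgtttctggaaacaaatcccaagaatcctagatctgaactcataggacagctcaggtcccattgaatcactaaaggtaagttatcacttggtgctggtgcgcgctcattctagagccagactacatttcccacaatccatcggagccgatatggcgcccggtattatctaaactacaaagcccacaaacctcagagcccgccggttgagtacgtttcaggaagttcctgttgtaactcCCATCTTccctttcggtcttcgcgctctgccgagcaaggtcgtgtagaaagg
RefSeq windows were matched for 74 of the 94 members (79 windows). The NRF1 letters occurred in 26.6% of the members' windows and in 6.23% of all 32851 windows. The ETS letters occurred in 22.8% of the members' windows and 8.86% of all, and the YY1 letters in 15.2% and 6.34%. At least 1 of the motifs was present in 57% of the members' windows and in 19.3% of all. Among members lower ipsilaterally at 6 h, 6 of 9 windows held the NRF1 letters, 0 the ETS letters and 1 the YY1 letters. Among those higher, 2 of 6 windows held each. These matches are a description of letters and no site was tested.

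Per kilobase of exon, the highest mean levels over the 24 libraries, among the 90 members with an exon length, were those of Cox6a1 (8393 normalized counts per kb), Cox8a (7317), the ATP synthase alpha subunit gene Atp5a1 (5600) and its beta subunit gene Atp5b (5395). The isoforms known from other tissues were low on the same scale. Cox6a2, the heart and muscle form of Cox6a1, stood at 48.3 per kb, Cox6b2, the testis form, at 22.8 against 3750 for Cox6b1, and Cox4i2, the lung form, at 25.4 against 3859 for Cox4i1. Cox7a1, the heart and muscle form, was at 19.1 against 1631 for Cox7a2.

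The summed level of the 94 genes overlapped between the sides, at 165900 to 208900 normalized counts in the 12 ipsilateral libraries and 173500 to 220600 in the 12 contralateral ones. Their share of all reads was 0.925% to 1.12% ipsilaterally and 0.859% to 1.01% contralaterally, so the direction of a side difference in the total depends on the scaling. With the deposited size factors, the median log2 fold change at 6 h was 0.04 for the members and 0.02 for all genes tested. When each library was instead divided by its total reads, a scaling added after seeing the data, these medians were 0.21 and 0.19. The members' median was within 0.02 of that of all genes. Rescaling a library moves all its genes nearly alike, so this distance could hardly differ between the scalings. Of the genes called at 6 h over the whole table, 49.2% were higher with the size factors and 72.2% with total reads. Directions below are with the deposited size factors, and those that did not hold under total reads are named.

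**Figure D1:**
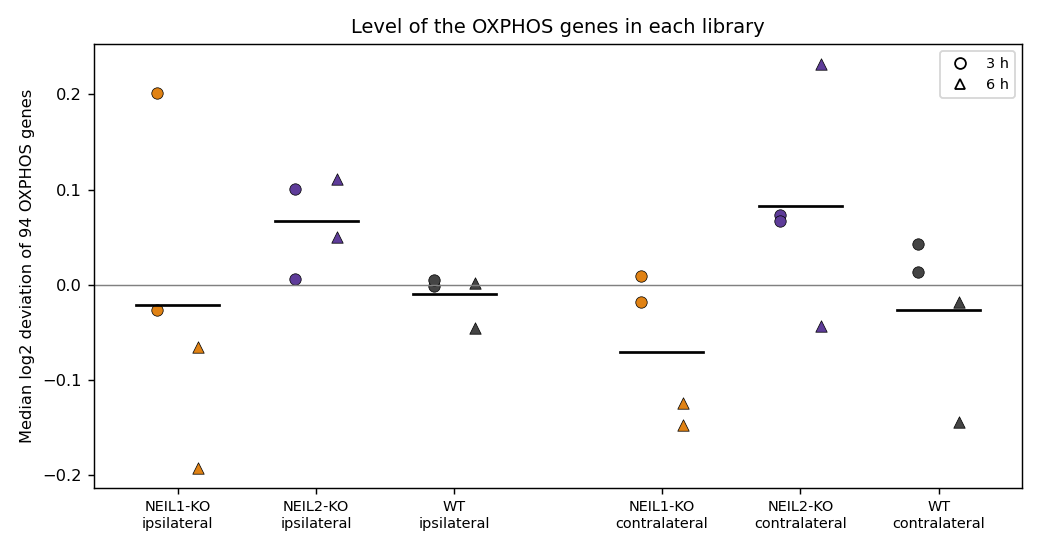
Each point is 1 library: the median over the 94 OXPHOS genes of the log2 normalized count minus the gene's mean over all 24 libraries (y axis), by genotype and side, with circles for 3 h, triangles for 6 h and bars for the mean of 4 libraries. NEIL2-KO contralateral 6 h replicate 2 (0.23) and labelled NEIL1-KO ipsilateral 3 h replicate 1 (0.20) stand highest, and labelled NEIL1-KO ipsilateral 6 h replicate 1 (-0.19) lowest.

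Libraries differed more among themselves than the sides did. The median log2 deviation of the members was -0.19 to 0.20 over the ipsilateral libraries and -0.15 to 0.23 over the contralateral ones, with means of 0.01 ± 0.10 and -0.00 ± 0.11 (SD, n = 12 each), as the plot of library medians shows. The highest library, NEIL2-KO contralateral 6 h replicate 2, also had 10.8% of its reads on lines without a gene name, against 8.41% to 9.06% in the other contralateral libraries. It is 1 of 6 libraries with high Xist. These were replicate 2 on both sides in each of labelled NEIL1-KO at 3 h and 6 h and NEIL2-KO at 6 h. Whether libraries with the same replicate number come from 1 animal is not stated in the labels. Subtracted number by number, ipsilateral minus contralateral, they had a median over the members between -0.17 (NEIL2-KO 6 h replicate 2) and 0.20 (labelled NEIL1-KO 3 h replicate 1), with 6 of the 12 medians above 0. With the deposited size factors, the median log2 fold change of the members by genotype and time was -0.03 to 0.09. Library medians within 1 group varied with an SD of 0.0858. With total reads, which raised the median of all genes as well, the members' median was 0.10 to 0.25.

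At 3 h few of these genes differed between the sides. Averaged over the 3 genotypes, 3 members (3.19% of 94) were called, 2 lower and 1 higher, against 31.6% of all genes tested (17.4% lower and 14.1% higher). Sdha, the catalytic flavoprotein of complex II, and Ndufs1, the largest core subunit of complex I, which carries iron-sulfur clusters, were lower ipsilaterally. Cox7c, a small subunit of complex IV, was higher. Sdha had a lowest, median and highest level of 4006, 4705 and 5135 in the 6 ipsilateral libraries and of 4961, 5233 and 5479 in the 6 contralateral ones, a log2 fold change of -0.20 ± 0.05 (limma adjusted p = 0.00205). The Sdha ranges overlapped, with a single ipsilateral library (NEIL2-KO replicate 1) above the lowest contralateral one. Ndufs1 changed by -0.23 ± 0.05 (adjusted p = 0.00345) and Cox7c by 0.16 ± 0.06 (adjusted p = 0.0432). With total-read scaling 29 members were higher and none was lower (of all genes 39.9% were called, 30.3% higher and 9.62% lower). Sdha and Ndufs1 were then at -0.06 and -0.09 and were not called. Without the 6 libraries with high Xist, which left 1 library in some groups, the count of calls moved. The share of all genes called in that fit is not given here. With the deposited scaling, Cox7c was called in 9 of the 24 fits that left out 1 library. Only 1 member, Atp5e, the epsilon subunit of ATP synthase, had all 6 ipsilateral libraries above all 6 contralateral ones (1.06% of members, against 18.2% of all genes that did not overlap in either direction).

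At 6 h more of the genes were called, in both directions. Of the 94 members, 20 were called (21.3%, against 48.7% of all genes), 11 lower (24.7% of all genes) and 9 higher (24% of all genes) ipsilaterally, and 74 were not. This balance depended on the scaling. With total reads 51 members were higher and 4 lower, against 40% and 15.4% of all genes (55.4% called). The lower ones with the size factors were Sdha, the complex I genes Ndufs1, Ndufa9, Ndufa10, Ndufa5 and Ndufv2, the assembly factors Ndufaf4 and Ndufaf7, the core proteins Uqcrc1 and Uqcrc2 of complex III, and Atp5a1. The higher ones were Cox7c, Cox8a, Cox6a1, Cox6a2 and Cox6b2 of complex IV, Ndufa2 and Ndufa6 of complex I, Atp5j2 of complex V, and the assembly factor Ndufaf6. The changes were small, with a median absolute log2 fold change of 0.11 for the members against 0.28 for all genes, and no member reached 1, against 8.84% of all genes. All 9 higher genes were also called with total-read scaling, which raised the median of all genes as well. Of the 11 lower genes, Sdha, Ndufs1, Ndufa9 and Ndufaf4 were still called lower there. The other 7 lay between -0.10 and 0.02, with Ndufv2 and Uqcrc1 just above 0. Less the median of all genes under that scaling, these 7 lay between -0.29 and -0.17.

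**Figure D2:**
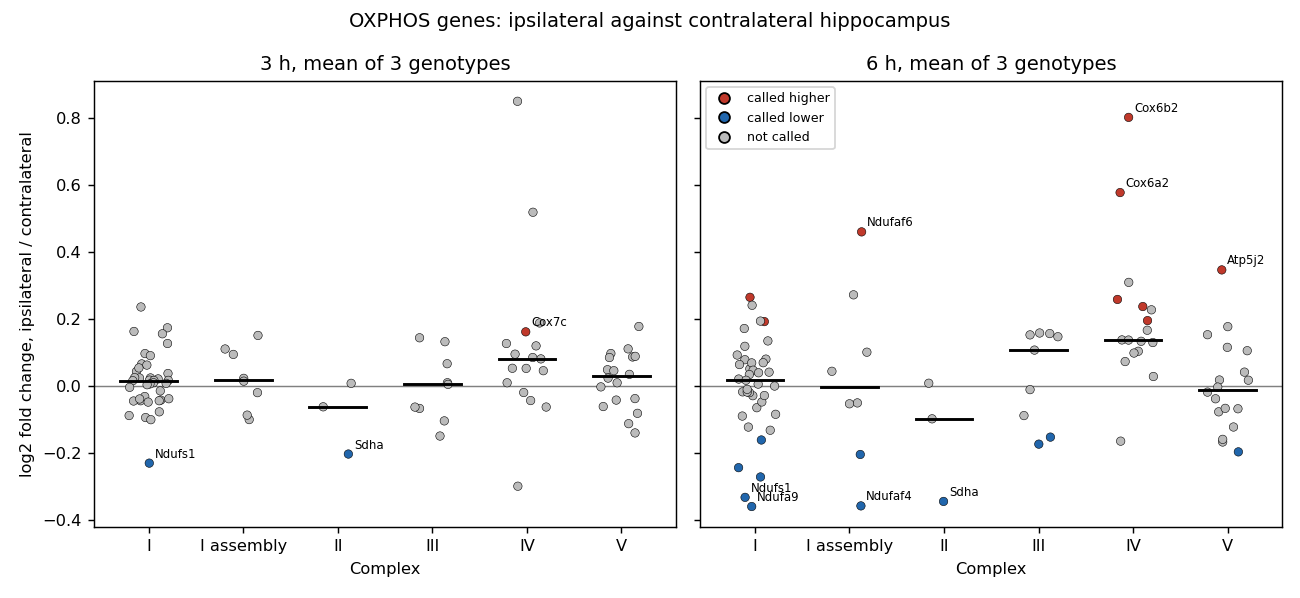
Each point is 1 of the 94 genes: its log2 fold change of ipsilateral over contralateral hippocampus, mean of the 3 genotypes, at 3 h (left) and 6 h (right), by complex (x axis), with bars for the median of a complex. Called genes are red (higher) or blue (lower). At 6 h, 16 of 17 complex IV genes lie above 0 and Sdha, Ndufs1, Ndufa9 and Ndufaf4 lie lowest.

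In complex II, Sdha was lower at 6 h in all 3 genotypes. Its lowest, median and highest levels were 3422, 3918 and 4150 in the 6 ipsilateral libraries and 4523, 4797 and 5278 in the 6 contralateral ones, so that no ipsilateral library reached the contralateral range. The mean log2 fold change was -0.35 ± 0.05 (adjusted p = 5.77e-06) (n = 6 libraries a side). By genotype, labelled NEIL1-KO had -0.41, NEIL2-KO -0.35 and WT -0.28, each called. The other subunits among the members did not follow it to the threshold. A further subunit gene, Sdhd, lies outside the name rule and is counted with the assembly genes below. Sdhb, the iron-sulfur subunit, was at -0.10 ± 0.06 (adjusted p = 0.149) and Sdhc, a membrane anchor, at 0.01 ± 0.08 (adjusted p = 0.948).

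In complex I, 5 of 39 genes were lower, 2 were higher and 32 were not called, with a median of 0.02. Of all genes 24.7% were lower and 24% higher. Of its 7 core subunits 2 were lower (Ndufs1 and Ndufv2) and 5 lay below 0. Ndufs1 had a lowest, median and highest level of 1428, 1677 and 1839 ipsilaterally and of 1972, 2047 and 2198 contralaterally, without overlap (log2 fold change -0.33 ± 0.05, adjusted p = 6.73e-05). Ndufa9, an accessory subunit at the joint of the matrix and membrane arms, had 1090, 1372 and 1559 against 1561, 1642 and 2220, which do not overlap but nearly touch (-0.36 ± 0.07, adjusted p = 0.000364). The NEIL2-KO contralateral replicate 2 library held the highest Ndufa9 value. Ndufa10, an accessory subunit of the membrane arm, changed by -0.24 ± 0.06 (adjusted p = 0.00317), Ndufa5 by -0.27 ± 0.09 (0.0187) and the iron-sulfur subunit gene Ndufv2 by -0.16 ± 0.06 (0.0272). The accessory subunit genes Ndufa2 (0.26 ± 0.09, adjusted p = 0.0235) and Ndufa6 (0.19 ± 0.07, adjusted p = 0.0240) went the other way.

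Among the 8 assembly factors, which build complex I without staying in it, 2 were lower and 1 higher, against 24.7% and 24% of all genes. Ndufaf4 had a lowest, median and highest level of 454.2, 546.1 and 624.2 ipsilaterally and of 653.6, 677.4 and 765.7 contralaterally (-0.36 ± 0.08, adjusted p = 0.00076). Ndufaf7, which methylates a core subunit of complex I, had 510.4, 518.6 and 537.6 against 564.6, 591.3 and 643.2 (-0.21 ± 0.05, adjusted p = 0.00351). Ndufaf6 had 107.4, 118.4 and 150.6 ipsilaterally and 75.0, 90.8 and 105.2 contralaterally (0.46 ± 0.11, adjusted p = 0.00287). None of these 3 ranges overlapped. With Sdha, Ndufs1 and Ndufa9 they were the 6 members (6.38%) whose libraries were fully apart at 6 h, against 21.7% of all genes tested. The Ndufaf6 log2 fold change was 0.23 for labelled NEIL1-KO, 0.38 for NEIL2-KO and 0.77 for WT.

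In complex III the core and catalytic subunits and the small subunits lay on opposite sides of 0. All 4 core and catalytic subunit genes were below 0, and Uqcrc2 (-0.17 ± 0.05, adjusted p = 0.00949) and Uqcrc1 (-0.15 ± 0.06, adjusted p = 0.0478) were called lower. Uqcrc2 had a lowest, median and highest level of 2430, 2966 and 3251 ipsilaterally and 2711, 3331 and 3645 contralaterally, with wide overlap. Cyc1, which encodes cytochrome c1, stood at -0.01 ± 0.05 (adjusted p = 0.871). All 5 small subunit genes were above 0, between 0.11 and 0.16, and none was called. Under total-read scaling Uqcrc2 was at -0.00 and Cyc1 was at 0.16 and called higher, so the sign of this group rests on the size factors.

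Complex IV, cytochrome c oxidase, had 5 of 17 genes called higher and none lower, against 24% and 24.7% of all genes. Above 0 were 16 of 17, with a median of 0.14 against 0.02 for all genes. Cox7c had a lowest, median and highest level of 2338, 2531 and 2737 ipsilaterally and of 2084, 2155 and 2396 contralaterally (0.19 ± 0.06, adjusted p = 0.0101). Cox8a had 3664, 4731 and 5953 against 3434, 3869 and 4748 (0.26 ± 0.08, adjusted p = 0.0112). Both pairs of ranges overlapped. Cox6a1, whose product adjusts the activity of the enzyme, had 5104, 6015 and 7459 against 4582, 5099 and 6026 (0.24 ± 0.08, adjusted p = 0.0143). The rarer isoforms were higher too but rest on few reads. Cox6a2 had 16.6, 37.4 and 47.6 against 13.7, 22.4 and 26.9 (0.58 ± 0.20, adjusted p = 0.0214), and Cox6b2 had 18.5, 33.5 and 54.3 against 6.64, 21.6 and 31.1 (0.80 ± 0.33, adjusted p = 0.0498). Cox6b2 was called in 7 of the 24 fits that left out 1 library, Cox6a2 in 20 and Cox6a1 in 21.

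The other isoform pairs of complex IV were not called between the sides with the deposited size factors. Cox4i1 was at 0.10 ± 0.06 and Cox4i2, the form induced by low oxygen in other tissues, at 0.31 ± 0.33. Ndufa4, a late-found subunit of the enzyme, was at 0.14 ± 0.06, and its hypoxia-induced paralogue Ndufa4l2 at -0.17 ± 0.24. Cox6b1 was at 0.17 ± 0.08. Cox7a2, Cox7a2l and Cox7a1 were at 0.13 ± 0.08, 0.07 ± 0.07 and 0.23 ± 0.29, and Cox7b at 0.10 ± 0.07.

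In complex V 1 of 18 genes was lower and 1 higher, against 24.7% and 24% of all genes, with a median of -0.01. Atp5a1, the alpha subunit of the catalytic head, had a lowest, median and highest level of 12200, 16420 and 18220 ipsilaterally and of 16600, 17420 and 21280 contralaterally (-0.20 ± 0.06, adjusted p = 0.00827). Its partner Atp5b stood at -0.04 ± 0.05 (adjusted p = 0.585). Atp5j2, subunit f of the membrane part, had 1404, 1553 and 1843 ipsilaterally and 1109, 1214 and 1569 contralaterally (0.35 ± 0.10, adjusted p = 0.00941). The ranges overlapped for both called genes. Leaving out 1 library at a time, Atp5a1, Atp5j2, Cox7c, Cox8a, Sdha, Ndufs1, Ndufa9, Ndufa10, Ndufaf4, Ndufaf6, Ndufaf7 and Uqcrc2 were called at 6 h in all 24 fits.

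**Figure D3:**
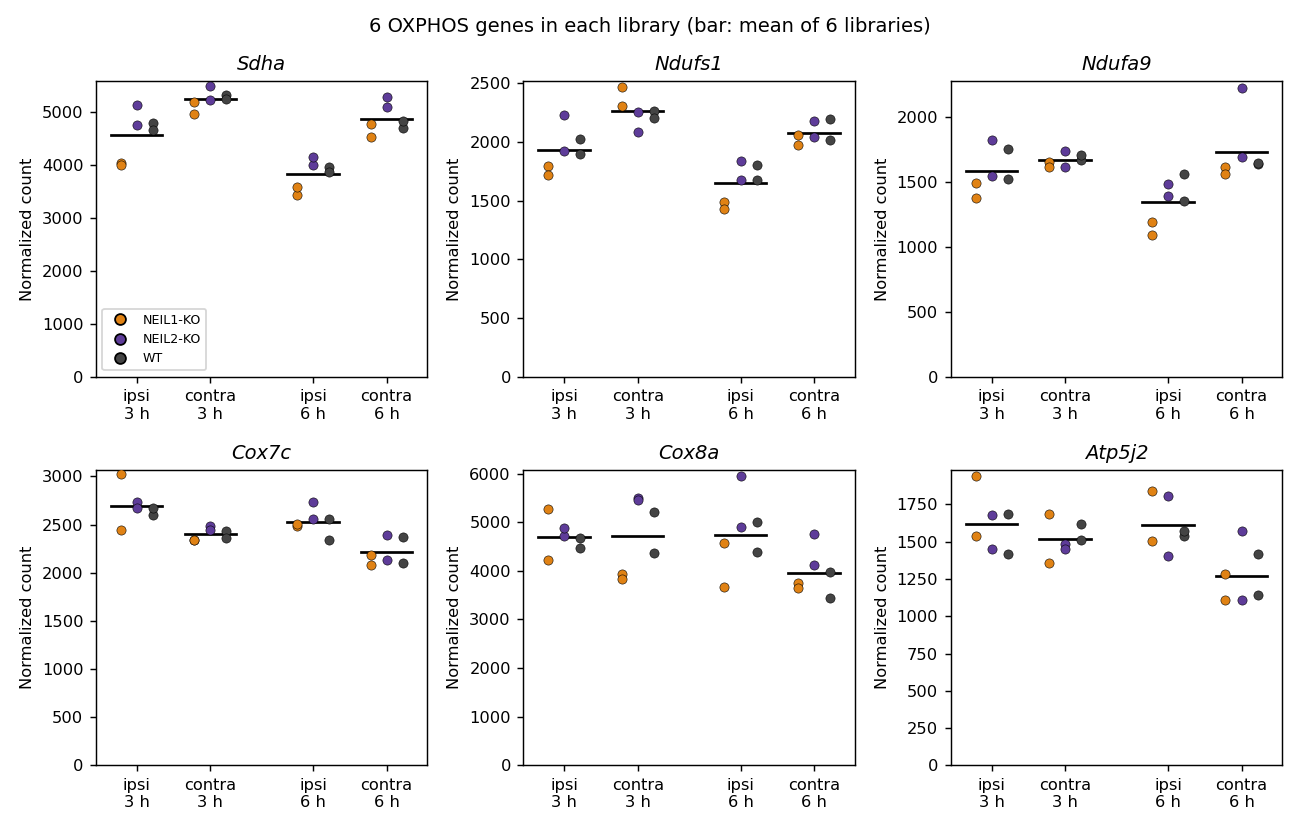
Normalized counts (y axis, from 0) of 6 OXPHOS genes in every library, by side and time, coloured by genotype as labelled, with bars for the mean of 6 libraries. At 6 h the ipsilateral points of Sdha, Ndufs1 and Ndufa9 lie below all contralateral ones, while those of Cox7c, Cox8a and Atp5j2 lie higher on average and overlap.

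The count at 6 h depended on single libraries. The share of all genes called in the same fits is not given here, so a change in calls over all genes is not set apart. It was 32 without labelled NEIL1-KO ipsilateral 6 h replicate 1 and 13 without NEIL2-KO ipsilateral 6 h replicate 1. Without NEIL2-KO contralateral 6 h replicate 2, the library with the highest level of the members, it was 29, and without labelled NEIL1-KO ipsilateral 6 h replicate 2, which had 12.5% of its reads on unnamed lines, it was 18. Of the 20 called genes 8 overlap a gene on the opposite strand (Sdha, Ndufs1, Ndufa9, Ndufa2, Ndufv2, Atp5a1, Cox6a2 and Uqcrc2), as do 31 of all 94 members. Since strand use in counting is not stated, reads of such a pair cannot be told apart. Ndufs1 shares its locus with the translation factor gene Eef1b2.

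The genes also divided by the length of their coding sequence. Across the 88 members with a coding length, the log2 fold change at 6 h fell with log2 length, with Pearson's r = -0.54 and Spearman's rho = -0.62, described across genes, which are not independent replicates and share the same libraries. Over 15215 genes tested the same values were -0.14 and -0.15. Of 64 members under 600 bp, 8 were higher and 2 lower, with a median of 0.08. Of 24 members of 600 bp or more, 1 was higher (Ndufaf6) and 9 were lower, with a median of -0.09. Over all lengths 24% of all genes tested were higher and 24.7% lower, and their shares by length class are not given here. The 600 bp cut was not among the planned comparisons. At 3 h r was -0.40. By genotype at 6 h, labelled NEIL1-KO had r = -0.52, NEIL2-KO -0.54 and WT -0.23. A list of cytosolic ribosomal protein genes taken by name, which also held Rps6k kinase genes, had r = -0.55 at 6 h. Mitochondrial ribosomal protein genes had r = -0.14. The share of reads on unnamed lines was higher ipsilaterally as well, at 9.15% to 12.5% against 8.41% to 10.8%, and its part in this relation was not tested.

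**Figure D4:**
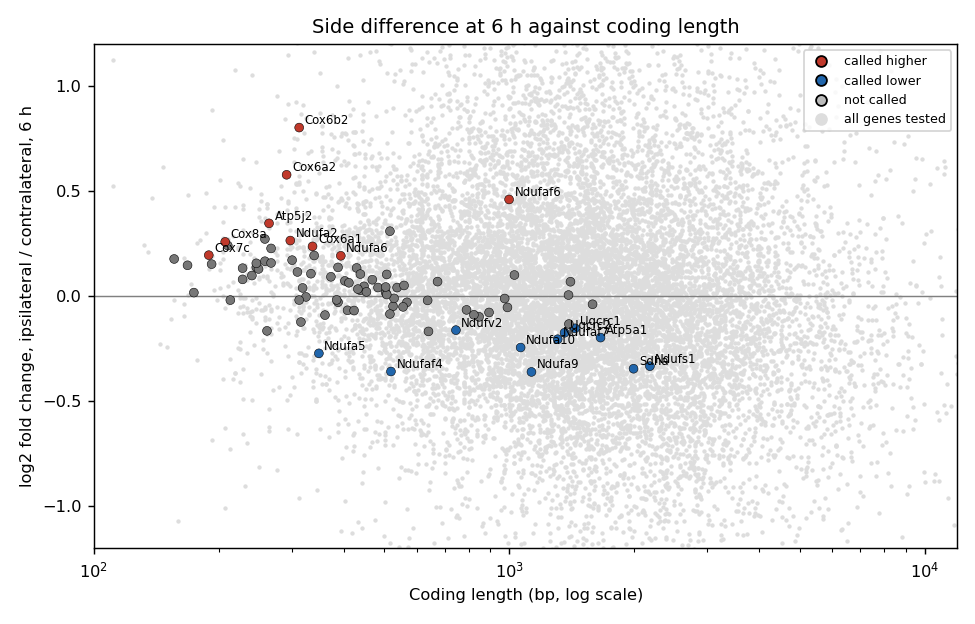
Log2 fold change of ipsilateral over contralateral hippocampus at 6 h (y axis, mean of 3 genotypes, cropped at 1.2 either way) against coding length (x axis, bp, log scale), with OXPHOS genes as large points (red called higher, blue called lower) and all genes tested in pale grey. Members under 600 bp have a median of 0.08 and longer ones of -0.09.

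Within single genotypes and times, each comparison rested on 2 libraries per side and few members were called. In labelled NEIL1-KO at 3 h, Ndufs1 (-0.44 ± 0.09) and Sdha (-0.34 ± 0.08) were lower, 2 members against 17% of all genes called (9.85% lower and 7.2% higher). This result moved in several settings. With all libraries the median over the members was 0.09. Without the 6 libraries with high Xist, which left 1 library a side here, it was 0.20. It was -0.02 without ipsilateral replicate 1 and 0.23 without ipsilateral replicate 2, each of which left 1 ipsilateral library. A fit of only these groups called 1 member, lower. With total reads 15 members were higher and 1 lower. Over the mean of the genotypes, which rests on more libraries, that scaling called 30.3% of all genes higher and 9.62% lower. Shares of all genes for this genotype alone under these settings are not given here. In NEIL2-KO at 3 h Atp5d, the delta subunit of ATP synthase, was lower (-0.45 ± 0.14, adjusted p = 0.0489), 1 member against 9.24% of all genes (4.95% lower and 4.29% higher), and it was not called by edgeR or with TMM scaling. In WT at 3 h no member was called, against 4.29% of all genes called by limma (1.79% lower and 2.49% higher). None had an unadjusted p under 0.05, a threshold at which all genes were not counted. The edgeR and DESeq2 tests called no member either.

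At 6 h, 10 members were called in labelled NEIL1-KO (against 39% of all genes, 21.4% lower and 17.6% higher), 4 in NEIL2-KO (24.8%, 12.6% lower and 12.2% higher) and 5 in WT (20.6%, 10.3% lower and 10.4% higher). In labelled NEIL1-KO the lower ones were Sdha (-0.41), Ndufs1 (-0.46), Ndufa9 (-0.48), Atp5a1 (-0.35), Ndufaf7 (-0.32), Uqcrc1 (-0.36), Ndufv1 (-0.34) and Ndufa10 (-0.30), and Atp5md (0.40) and Atp5j2 (0.48) were higher. All 7 core subunit genes of complex I lay below 0 there, with a median of -0.20. In NEIL2-KO, Sdha (-0.35), Ndufa9 (-0.43), Ndufa10 (-0.35) and Uqcrc2 (-0.28) were lower and none was higher. Without the 6 libraries with high Xist, which left 1 library a side there, the median over the members was 0.19 against -0.02. In a fit of only these groups none was called. In WT, Ndufaf4 (-0.51), Sdha (-0.28) and Ndufs1 (-0.27) were lower, and Ndufaf6 (0.77) and Cox6a2 (1.16) were higher, while a fit of only the WT groups called none. With total reads 26 members were higher and none lower in labelled NEIL1-KO, 13 and none in NEIL2-KO, and 8 and 1 in WT. Over the mean of the genotypes, which rests on more libraries, that scaling called 40% of all genes higher and 15.4% lower. Shares of all genes for single genotypes, under this and the other alternative settings, are not given here. Without the libraries with high Xist labelled NEIL1-KO had 2 lower and none higher, and a fit of only its groups had 1 higher and none lower. The labelled NEIL1-KO count was 27 without ipsilateral replicate 1, 3 without ipsilateral replicate 2 and 3 without contralateral replicate 1. The WT count was 0 or 3 when ipsilateral replicate 2 or 1 was left out, and 1 or 2 when contralateral replicate 2 or 1 was. The NEIL2-KO count was 1 without its ipsilateral replicate 1.

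The isoform pairs and the complex II members varied between these small comparisons. Besides Sdha, only Cox6a2 in WT at 6 h was called among them. Cox6b2 was above 0 in all 6, from 0.16 (WT 3 h) to 1.38 (NEIL2-KO 3 h), while Cox6b1 ranged from -0.03 to 0.22. Cox6a2 ranged from -0.34 in NEIL2-KO at 3 h to 1.16 in WT at 6 h and Cox6a1 from -0.27 to 0.30. Cox4i2 ranged from -0.08 to 0.90 and Cox4i1 from -0.02 to 0.19. Cox7a1, with the fewest reads, ranged from -0.83 to 0.85, against 0.04 to 0.20 for Cox7a2 and 0.00 to 0.13 for Cox7a2l. Ndufa4l2 ranged from -0.75 to 0.04 and Ndufa4 from 0.07 to 0.18. Cox7b lay between 0.01 and 0.12 and Cox8a between -0.19 and 0.34. Sdhb lay between -0.19 and 0.01, Sdhc between -0.10 and 0.09 and Cyc1 between -0.19 and 0.13. The low-level isoforms thus spread over a wider range than their abundant partners.

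Over the 6 comparisons of the sides, 5 members were below 0 in every one: Sdha, Ndufs1, Ndufa10, Ndufaf4 and Ndufb4, of which Ndufb4 was called in none. Above 0 in every one were 13, among them Cox7c, Cox6c, Cox7b, Cox7a2, Cox7a2l, Cox6b2 and Ndufa4 of complex IV. The side difference itself was not shown to depend on genotype. No gene of the whole table (0%) was called for labelled NEIL1-KO against WT or for NEIL2-KO against WT in this test. The members with the smallest p were Ndufs1 (-0.22 ± 0.09, adjusted p = 0.316) and Ndufaf7 (-0.21 ± 0.09, 0.320) for labelled NEIL1-KO, and Atp5d (-0.29 ± 0.14, 0.869) and Cox6a2 (-0.59 ± 0.34, 0.869) for NEIL2-KO. With an unadjusted p under 0.05 there were 4 members and 1 member, and edgeR and DESeq2 called none in either. The share of all genes under that unadjusted threshold was not counted.

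Knockout and WT were also compared on each side, as the mean of 3 h and 6 h. In the ipsilateral hippocampus 5 members were lower in labelled NEIL1-KO than in WT and none was higher, against 9.31% of all genes called (7.4% lower and 1.91% higher). Uqcrc2 had 2929, 2928, 2693 and 2430 normalized counts in the labelled NEIL1-KO libraries and 3333, 3311, 3251 and 3090 in the WT libraries (3 h pair first, -0.25 ± 0.06, adjusted p = 0.0251). Atp5a1 had 16610, 16410, 14170 and 12200 against 18350, 17130, 17470 and 18220 (-0.27 ± 0.07, adjusted p = 0.0251). Cox6a2 had 34.8, 30.3, 16.6 and 19.4 against 54.0, 44.9, 46.3 and 42.0 (-0.92 ± 0.24, adjusted p = 0.0266). In Uqcrc2, Atp5a1 and Cox6a2 the ranges did not overlap. Uqcrc1 (-0.28 ± 0.08, adjusted p = 0.0315) and Sdha (-0.20 ± 0.06, adjusted p = 0.0337) were also lower, and the median over the 94 genes was -0.00. Outside the name rule, the complex II subunit gene Sdhd was lower too (-0.37 ± 0.06, adjusted p = 0.00266). It was 1 of 4 called lower, with 0 higher, in the list of 37 further assembly genes. The neuronal marker sum was lower in these libraries as well, at 79080 to 150600 in labelled NEIL1-KO and 149100 to 183100 in WT, while endothelial markers were at 6741 to 13330 against 5575 to 7467 and choroid plexus markers at 329.5 to 21360 against 394.9 to 670.3. With the mean log2 level of the choroid plexus markers as a covariate no member was called, and the part of the other markers was not tested. None of the 5 was called without labelled NEIL1-KO ipsilateral 3 h replicate 1 or 6 h replicate 2, or without WT ipsilateral 3 h replicate 1, 3 h replicate 2 or 6 h replicate 2, and 14 members were called without labelled NEIL1-KO ipsilateral 6 h replicate 1. Nor was any called without the libraries with high Xist or in a fit of only the compared groups. With total-read scaling 1 member was called, lower. The shares of all genes called in these alternative fits are not given here.

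In the contralateral hippocampus no member was called between labelled NEIL1-KO and WT (0.103% of all genes, 0.0599% lower and 0.0436% higher). At an unadjusted p under 0.05 there were 2 members, and all genes were not counted at that threshold. The smallest p-values belonged to Uqcrfs1, the Rieske iron-sulfur protein of complex III (-0.15 ± 0.06, adjusted p = 0.652), and Ndufaf7 (0.15 ± 0.06, 0.689). The median was -0.05, with 15 of 94 above 0.

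In NEIL2-KO the members leaned higher than in WT without a call. On the contralateral side 85 of 94 were above 0, with a median of 0.11 against 0.00 for all genes, and none was called (0.0817% of all genes, 0.0327% higher and 0.049% lower), with 9 at an unadjusted p under 0.05. On the ipsilateral side 81 were above 0, with a median of 0.06, and none was called (0.109%, 0.0436% higher and 0.0653% lower), with 4 at an unadjusted p under 0.05. Shares of all genes under that unadjusted threshold were not counted for either side. Ndufb10 (0.22 ± 0.07, adjusted p = 0.464) and Ndufs3 (0.16 ± 0.06, 0.517) had the smallest p contralaterally, and Ndufa12 (0.20 ± 0.09, 0.831) and Uqcr11 (0.25 ± 0.11, 0.831) ipsilaterally. The contralateral median was 0.03 without NEIL2-KO contralateral 6 h replicate 2, so 1 library carried most of it. The edgeR and DESeq2 tests called no member in these 3 comparisons.

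From 3 h to 6 h, the ipsilateral hippocampus showed 5 members lower at 6 h and none higher (12.7% of all genes called, 7.52% lower and 5.14% higher). These were Sdha (-0.25 ± 0.05, adjusted p = 0.00262), Ndufaf7 (-0.24 ± 0.05, 0.0073), Ndufs1 (-0.23 ± 0.05, 0.0131), Ndufa5 (-0.34 ± 0.09, 0.0218) and Ndufa9 (-0.24 ± 0.07, 0.0326), all of which were also lower than in the contralateral side at 6 h, a comparison that shares the 6 h libraries. Sdha and Ndufaf7 were called in all 24 fits without 1 library. Lower members numbered 3 without the libraries with high Xist, 1 with total reads and 1 in a fit of only the compared groups, with none higher. The count was 11 without labelled NEIL1-KO ipsilateral 6 h replicate 1, 2 without WT or NEIL2-KO ipsilateral 3 h replicate 1, and 3 without labelled NEIL1-KO ipsilateral 3 h replicate 1, WT ipsilateral 6 h replicate 2 or NEIL2-KO ipsilateral 6 h replicate 1. The shares of all genes called in those alternative fits are not given here. On the contralateral side none was called (0.332%, 0.218% lower and 0.114% higher), although 82 of 94 were below 0 with a median of -0.07 against -0.01 for all genes. An unadjusted p under 0.05 was found for 13. All genes were not counted at that threshold, here or for the change of the side difference below. Cox6a2 (-0.69 ± 0.20, adjusted p = 0.153) and Cox6a1 (-0.25 ± 0.08, 0.169) had the smallest p there. The change of the side difference from 3 h to 6 h was called for no member (1.9% of all genes, 0.463% lower and 1.43% higher), with 6 at an unadjusted p under 0.05, the lowest for Ndufa9 (-0.28 ± 0.10, adjusted p = 0.151) and Ndufaf7 (-0.18 ± 0.07, 0.215). Neither edgeR nor DESeq2 called a member in the last 2 comparisons.

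Other genes of mitochondrial metabolism were counted at 6 h beside the members. Of all genes tested, 24.7% were lower and 24% higher then, and 15.4% and 40% with total reads. Of 16 genes of the TCA cycle and the pyruvate dehydrogenase complex, which feed the respiratory chain, 11 were lower ipsilaterally and none was higher, with a median of -0.27. Ogdh, the E1 subunit of 2-oxoglutarate dehydrogenase, fell by 0.57 on the log2 scale, Dlat by 0.56 and the succinyl-CoA ligase gene Sucla2 by 0.37. With total-read scaling 8 were lower and 2 higher, with a median of -0.10. Of 37 further genes for assembly of the complexes (Sdhd, a subunit outside the name rule, is listed with them), 12 were lower and 5 higher with a median of 0.01, but 4 and 18 with total reads. Of 15 regulators of mitochondrial biogenesis, 3 were lower and 3 higher. Ppargc1a, the coactivator that drives the program, fell by 0.41, Polrmt, the mitochondrial RNA polymerase, by 0.37 and Tfam, a mitochondrial DNA-binding factor, by 0.23, while Pprc1, a relative of Ppargc1a, rose by 0.48. With total reads 1 was lower and 9 higher.

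Of 78 mitochondrial ribosomal protein genes 12 were higher and 8 lower (45 and 1 with total reads), beside the shares of all genes given above. Of 86 cytosolic ribosomal protein genes 64 were higher and none lower, with a median of 0.28 (81 and 0 with total reads). The list by name had 95 genes, 66 higher and 2 lower, since it also caught Rps6k kinase genes, which were set aside after they were seen. Of 26 glycolysis and hypoxia genes 13 were lower and 6 higher (5 and 8 with total reads). Those higher included the glucose transporter gene Slc2a1 (1.498), Egln3 (1.19) and Vegfa (0.72), known to be induced by low oxygen, and Pdk1, which restrains pyruvate dehydrogenase, fell by 0.42. At 3 h the counts lower and higher were 7 and 0 for the TCA list, 5 and 1 for assembly, 0 and 0 for regulators, 4 and 4 for the mitochondrial ribosome, 0 and 15 for the cytosolic ribosome, and 7 and 5 for glycolysis and hypoxia. Of all genes tested, 17.4% were lower and 14.1% higher at 3 h.

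**Figure D5:**
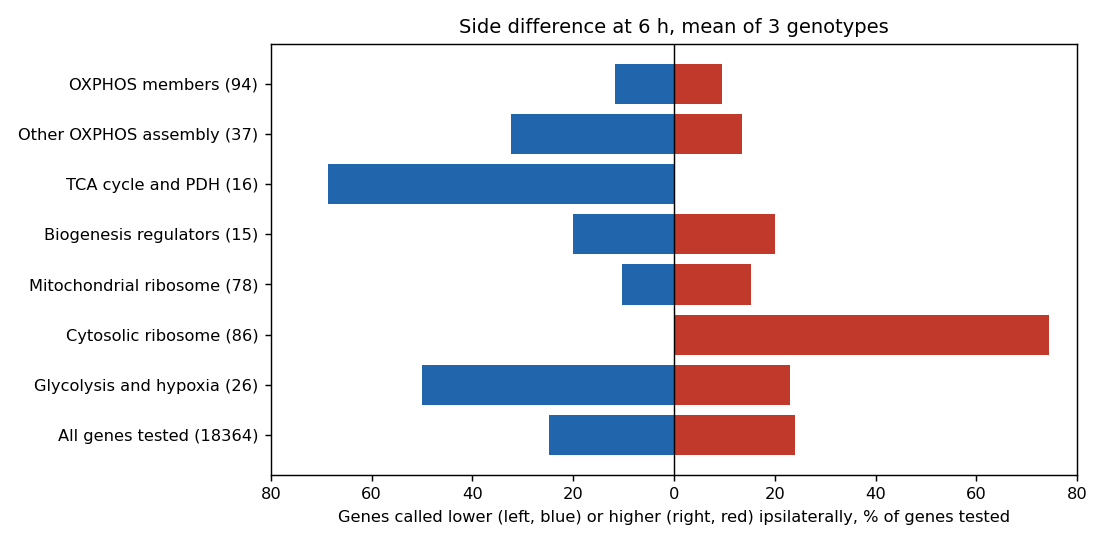
Share of each gene list called lower (blue, to the left) or higher (red, to the right) in the ipsilateral hippocampus at 6 h, as a percentage of the genes tested, with the number of genes in brackets. Of the OXPHOS genes 11 and 9 of 94 were called, against 11 and 0 of 16 in the TCA list and 0 and 64 of 86 for the cytosolic ribosome. Of all genes tested 24.7% were lower and 24% higher.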

How the data were processed

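Total RNA from the hippocampus was sequenced in 24 libraries. The deposited table holds 1 signal per gene and library, a read count divided by a size factor. Per the submitters' processing notes, Trim Galore, HISAT2, SAMtools, featureCounts and DESeq2 were used with GRCm39 (mm39), in versions and settings not given in the sources used here. All deposited values (100%, tolerance 1e-06) were whole multiples of 1 read, so reads were recovered. Of 33084 lines, 32.6% had no gene name and were left out.

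A limma-trend model (limma 3.58.1 in R 4.3.3) was fitted to log2(value + 1), with 12 group means, 12 residual degrees of freedom and 17 comparisons, over genes with a value of at least 10 in at least 2 libraries. The log2(value + 1) scale understates changes of low genes. The procedure was tested on simulated counts. Of 18364 genes, edgeR 4.0.16 called 5825 for the mean of the sides at 3 h and 9093 at 6 h on recovered reads, against 5800 and 8945 with limma. The alternatives were a pseudocount of 5, no filter, TMM and total-read scaling, edgeR, DESeq2 1.42.0, only the compared groups, a replicate block, a choroid plexus covariate, no libraries with high Xist, and leaving out each library. Members of a mean comparison were named by smallest adjusted p, up to 10 per direction, isoform pairs always, and others up to 6 per direction or, with none called, the 2 with the smallest p. Uqcrc1 at 6 h, Ndufv1 and Ndufa10 in labelled NEIL1-KO at 6 h, Atp5e, Atp5b, and the members on 1 side of 0 in all comparisons of the sides were named after their values were seen. The members and lists were chosen with earlier results of these data known. Lengths are from GENCODE vM21 (GRCm38), matched by name. Ndufb4 and Ndufb4c, Ndufab1 and Ndufab1-ps, and Atp5c1 and Atp5c1-ps may share reads, so their split is uncertain.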

Additional observations from a re-analysis of the deposited data

How the results depend on the processing

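Both the counts of called members and their balance of directions moved. Shares of all genes are given below only for total-read scaling over the mean of the genotypes. For the other settings, and for fits without 1 library, a change in calls over all genes is not set apart. With total-read scaling Ndufv2, called lower with the size factors, was at 0.0108 and not called, and Cyc1, not called with them, was at 0.16 and called higher at 6 h. That scaling called 29 members at 3 h (all higher) and 55 at 6 h (51 higher, 4 lower) over the mean of the genotypes, 16 (15 higher) and 26 (all higher) in labelled NEIL1-KO, 13 (all higher) in NEIL2-KO at 6 h and 9 (8 higher) in WT at 6 h. Of all genes, it called 30.3% higher and 9.62% lower at 3 h over that mean, and 40% and 15.4% at 6 h. The medians it gave were 0.16 and 0.21 for the mean, 0.24 and 0.25 for labelled NEIL1-KO, 0.14 and 0.18 for NEIL2-KO, and 0.10 and 0.17 for WT (3 h and 6 h). It called 1 member over time ipsilaterally and 1 for labelled NEIL1-KO against WT ipsilaterally, where the median was 0.0891. Fitting only the compared groups called 6 and 13 for the mean at 3 h and 6 h, 1 and 1 for labelled NEIL1-KO, 0 for NEIL2-KO at 6 h, 0 for WT at 6 h, 1 over time ipsilaterally and 0 for labelled NEIL1-KO against WT ipsilaterally. Without the libraries with high Xist, which leaves 1 library in some groups, assumed to vary like the others, the counts were 13 (11 higher, 2 lower) for the mean at 3 h, 12 (all higher) and 2 (both lower) for labelled NEIL1-KO, 3 (2 higher, 1 lower) and 12 (10 higher, 2 lower) for NEIL2-KO, 3 (all lower) over time and 0 for labelled NEIL1-KO against WT ipsilaterally. The medians were then 0.20 for labelled NEIL1-KO at 3 h, 0.19 for NEIL2-KO at 6 h and 0.0436 for the side difference of NEIL2-KO minus that of WT. A choroid plexus covariate called 3 for labelled NEIL1-KO at 6 h, 0 for NEIL2-KO at 3 h and 0 for labelled NEIL1-KO against WT ipsilaterally. The 1 call of NEIL2-KO at 3 h was 0 with no filter, TMM scaling, edgeR or the replicate block and 2 with DESeq2, which called 7 for NEIL2-KO at 6 h and 8 over time ipsilaterally. The cause of these differences was not tested, except that fits of the compared groups use fewer libraries.

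Leaving out 1 library at a time, called members ranged from 13 to 32 for the mean at 6 h, 2 to 4 at 3 h, 0 to 7 and 3 to 27 for labelled NEIL1-KO, 0 to 1 and 1 to 8 for NEIL2-KO, 0 to 6 for WT at 6 h, 2 to 11 over time ipsilaterally, 0 to 14 for labelled NEIL1-KO against WT ipsilaterally, 0 to 1 for 6 h minus 3 h, and 0 to 1 for the side difference of labelled NEIL1-KO minus that of WT. The NEIL2-KO count at 6 h was 1 without its ipsilateral replicate 1, and 8 without either labelled NEIL1-KO ipsilateral 6 h library. The labelled NEIL1-KO count at 3 h was 0 without contralateral replicate 2 and 7 without ipsilateral replicate 2. The median ranged from -0.0213 to 0.23 for labelled NEIL1-KO at 3 h and from -0.16 to 0.16 for NEIL2-KO at 6 h. Same-numbered libraries of the sides deviated together with correlations of -0.01 to 0.27. High Xist matched by number, in replicate 2 on both sides of each group that had it. The labels do not state a pairing, and the main model left it out. A replicate block gave 18 calls for the mean at 6 h and 2 at 3 h. The median over the members varied between libraries of 1 group with an SD of 0.0858 on the log2 scale, which limits what shift of the whole set can be seen with 2 libraries per group.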
